A study of Mus musculus with 6 samples.

Results

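The genes described here were 9 mouse lymphocyte surface protein genes, namely Cd2, Cd5, Cd6, Cd27, Cd28, Ltb, Ptprcap, Ms4a4b and Ms4a6b, taken by a list of their Ensembl gene IDs. Of the 9, 7 had at least 1 tag with a poly(A) tail, among 6469 gene IDs with such a tag in the series. Cd28 and Ptprcap had no linked tag in any library. The study measured poly(A) tails by mTAIL-seq, in which a hairpin adaptor is ligated to the 3′ ends of total RNA and the tail of each captured end is read by sequencing. Libraries were made from naive CD4 T cells sorted as TCRb+CD4+CD25-CD62LhiCD44low, with 3 libraries per genotype. The DKO group was Btg1f/f Btg2f/f-CD4-Cre mice, and the WT group was littermate controls with the same Btg1f/f Btg2f/f alleles and no Cre named. CD4-Cre is a transgene that acts in developing T cells, so other blood cells keep both genes, and T cells mature without them. No source used here states the ages of the mice. Cells came from 2 pairs of mice by the growth protocol, while the design gives 3 replicates per genotype, so libraries may share animals, and p-values measure only the spread between libraries.

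BTG1 and BTG2 bind the CCR4-NOT deadenylase, which shortens poly(A) tails and thereby starts the decay of many mRNAs. The question asked of each mRNA was whether its tail or its abundance differed in T cells without them. The proteins encoded here sit at the T cell surface: CD2, CD27 and CD28 give adhesion or co-stimulation, CD5 and CD6 are scavenger receptor family members that tune the antigen receptor signal, and lymphotoxin beta, the product of Ltb, is a membrane ligand that helps organise lymphoid tissue. Ptprcap encodes a partner of the phosphatase CD45, and Ms4a4b and Ms4a6b encode multi-pass membrane proteins of the MS4A family.

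Both libraries numbered 3 stood apart from the others. The DKO libraries held 97097, 90156 and 22311 mapped tags, and the WT libraries 96000, 62902 and 37609 (replicates 1 to 3). Tags without a tail of at least 5 nt made up 35.3% in DKO replicate 3 and 32.3% in WT replicate 3, but 7.95 to 9.94% in the other 4 libraries. The mean tail over the tailed tags that were linked to a gene ID was 60.9 nt in DKO replicate 3 and 48.3 nt in WT replicate 3. It was 70.3 to 78.9 nt elsewhere. Tailed links, each between a tailed tag and a gene ID, numbered 20848, 24225 and 3990 in the DKO libraries and 17139, 11537 and 7280 in the WT libraries. Levels below are given per 10000 of these links. The 10 IDs with the most tags took 27.3 to 31.1% of links in the DKO libraries and 37.3 to 39.3% in the WT libraries, so less of the denominator was open to other genes in WT. The part these differences have in the results was not tested.

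Ltb gave 374 of the 491 tailed tags of the 9 genes and ranked number 24 of the 6469 IDs. Its ID is ENSMUSG00000024399, and it lies on chromosome 17 (GRCm38.p6, chr17:35194507-35196305). It was followed by Ms4a6b with 29 tags, Ms4a4b with 28, Cd2 with 22, Cd5 and Cd27 with 14 each, and Cd6 with 10. Tags come from 3′ ends and not from along the transcript, so these numbers were not scaled by length. The order below Ltb was not stable between libraries: Ms4a4b had more tags than Ms4a6b in DKO replicate 1 and fewer in each WT library. Of the 9 genes, 5 lie on chromosome 19, among them the neighbours Cd5 (ENSMUSG00000024669, chr19:10718107-10739026) and Cd6 (ENSMUSG00000024670, chr19:10789339-10830062) and the family pair Ms4a4b (ENSMUSG00000056290, chr19:11443558-11463549) and Ms4a6b (ENSMUSG00000024677, chr19:11518559-11530403). Cd2 (ENSMUSG00000027863, chr3:101275908-101287939) and Cd27 (ENSMUSG00000030336, chr6:125232620-125237136) lie apart from these. Every tag of the 7 genes was linked to a single gene ID. With 0 of 85019 tailed links, Cd28 (ENSMUSG00000026012) and Ptprcap (ENSMUSG00000045826) could each still have had up to 0.353 links per 10000, the limit that a count of 0 allows. Any lower level was not detectable at this depth.

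The poly(A) tails of Ltb carry most of what these data say about the 9 genes, so the bases listed for single Ltb tags are shown first, 5′ to 3′. Lower case marks the tail as listed, and capitals mark bases added beyond it, where T stands for U in the RNA. The first line shows a tag of DKO replicate 2 with a tail of 45 nt that was listed in full. The second is the string of 10 A that was listed for many Ltb tags of far greater tail length. The third is a DKO replicate 1 tag of 29 nt seen in 13 reads, and the fourth a WT replicate 3 tag of 8 nt, both ending in added U. Listed strings need not match the tail length: the fourth lists fewer A than its 8 nt.
Ltb, listed in full: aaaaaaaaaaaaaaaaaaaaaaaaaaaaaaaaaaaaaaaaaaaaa
Ltb, listed as 10 A: aaaaaaaaaa
Ltb, DKO replicate 1, added base: aaaaaaaaaaaaaaaaaaaaaaaaaaaaaT
Ltb, WT replicate 3, added bases: aaaaaaaTT

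Ltb did not differ detectably in abundance between the genotypes. Lymphotoxin beta anchors lymphotoxin alpha at the cell surface, and the pair signals to stromal cells of lymph nodes. Ltb had 75, 123 and 11 tailed tags in DKO replicates 1, 2 and 3, and 97, 52 and 16 in WT replicates 1, 2 and 3. Per 10000 tailed links these were 36.0, 50.8 and 27.6 in DKO and 56.6, 45.1 and 21.98 in WT. The groups overlapped, with the lowest level of each in its replicate 3. The means were 38.1 ± 11.7 in DKO and 41.2 ± 17.6 in WT (SD, n = 3 each). In the edgeR quasi-likelihood test over 170 IDs the log2 fold change of Ltb, DKO over WT, was -0.16 (SE 0.44, adjusted p = 0.94). That test called 0 of 170 IDs (0%), with 13 at an unadjusted p under 0.05, while DESeq2 called 0 with 8. Blocking on the replicate number, edgeR called 3 of 224 IDs (1.34%), none of them one of the 9 genes, and Ltb was at -0.25 (adjusted p = 0.77). In a bulk sample, fewer cells of a type and less RNA per cell cannot be told apart.

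The less abundant genes together had more tags in DKO. In the edgeR fit without a low-count filter, 4020 of 6469 IDs also had a positive log2 fold change, DKO over WT, with a median of 0.54. Among the 170 IDs that passed the filter, 78 were positive, with a median of -0.05. Cd2, Cd5, Cd6, Cd27, Ms4a4b and Ms4a6b summed to 38, 44 and 5 tailed tags in DKO replicates 1, 2 and 3, and to 14, 8 and 8 in WT. Per 10000 tailed links these were 18.2, 18.2 and 12.5 in DKO and 8.17, 6.93 and 10.99 in WT. Every DKO library lay above every WT library, but DKO replicate 3 and WT replicate 3 were only 1.54 apart. The means were 16.3 ± 3.27 in DKO and 8.70 ± 2.08 in WT (SD, n = 3 each), a ratio of 1.87. Without the 10 most-tagged IDs in the denominator the levels were 24.99, 25.1 and 17.9 in DKO and 13.4, 11.1 and 17.4 in WT. The ratio was then 1.62 and the gap between the nearest libraries 0.559. No p is given for this sum, because the genes were chosen with results known and Ltb was set apart after its counts were seen. Ltb made up 66.4, 73.7 and 68.8% of the tags of the 9 genes in DKO and 87.4, 86.7 and 66.7% in WT.

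**Figure D1:**
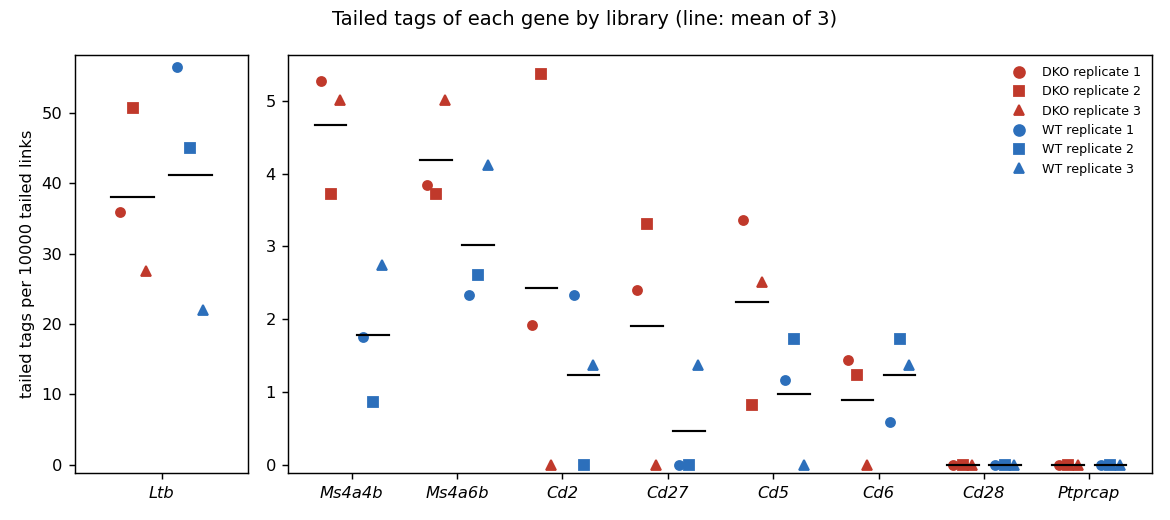
Tailed tags per 10000 tailed links for the 9 genes, 1 point per library, with DKO left of WT for each gene and Ltb on its own scale. Cd28 and Ptprcap had no tags. Ltb overlapped between the genotypes, and of the 7 genes with tags only Ms4a4b had all 3 DKO libraries (3.72 to 5.28) above all 3 WT libraries (0.867 to 2.75). Ms4a4b had only 2 tags in DKO replicate 3, and 1 and 2 tags in WT replicates 2 and 3.

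Ms4a4b encodes an MS4A membrane protein of T cells. It had 11, 9 and 2 tailed tags in DKO replicates 1, 2 and 3, and 3, 1 and 2 in WT. Per 10000 links these were 5.28, 3.72 and 5.01 in DKO and 1.75, 0.867 and 2.75 in WT, with means of 4.67 ± 0.836 in DKO and 1.79 ± 0.941 in WT (SD, n = 3 each). The groups did not overlap, as for 1 of the 7 genes with at least 10 tags. The counts of DKO replicate 3 and of WT replicates 2 and 3 were below the 3 tags taken as the floor, so this separation rests on very few tags. Of 1009 IDs with at least 10 tailed tags, 107 (10.6%) had every DKO library above every WT library and 31 (3.07%) the reverse, so a count of 1 in 7 is near the background. The pooled rate ratio, DKO over WT, was 2.69 with an exact 95% interval of 1.06 to 8.10, which covers counting error only.

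Its relative Ms4a6b had 8, 9 and 2 tailed tags in DKO and 4, 3 and 3 in WT. Per 10000 links these were 3.84, 3.72 and 5.01 in DKO and 2.33, 2.60 and 4.12 in WT. WT replicate 3 lay above DKO replicates 1 and 2, so the groups overlapped. The pooled rate ratio was 1.39, with an interval of 0.616 to 3.35 that again covers counting error only.

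Cd2, an adhesion receptor that binds CD48 in mice, had 4, 13 and 0 tailed tags in DKO replicates 1, 2 and 3, and 4, 0 and 1 in WT. Of its 17 DKO tags, 13 came from replicate 2, and the groups overlapped (pooled rate ratio 2.49, interval 0.882 to 8.64). Cd27, a receptor of the tumour necrosis factor family that binds CD70, had 5, 8 and 0 tags in DKO and 0, 0 and 1 in WT. DKO replicates 1 and 2 lay above every WT library, while DKO replicate 3 had no tailed tag and 1 untailed one. The pooled rate ratio from 13 DKO tags and 1 WT tag was 9.53, with an interval of 1.43 to 405. That interval leaves out the spread between libraries and decides nothing about the genotypes.

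Cd5, which dampens antigen receptor signalling, had 7, 2 and 1 tailed tags in DKO and 2, 2 and 0 in WT (pooled rate ratio 1.83, interval 0.528 to 8.0). Cd6, whose ligand is the adhesion molecule ALCAM, had 3, 3 and 0 in DKO and 1, 2 and 1 in WT (pooled rate ratio 1.10, interval 0.261 to 5.30). Both groups overlapped for each gene, and in several libraries the count was below the 3 tags taken as the floor. These 6 genes did not pass the low-count filter of the test. Fitted without a filter over 6469 IDs, the 7 genes with tags had edgeR adjusted p-values of 0.64 to 0.93. Of these 7, 6 had a positive log2 fold change, and Cd27 alone had an unadjusted p under 0.05 (0.016). Over all 6469 IDs of that fit, of which 4020 were positive, 154 had an unadjusted p under 0.05 and none was called.

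The tail length of Ltb did not differ detectably between the genotypes. The mean Ltb tail was 88.1, 95.6 and 62.3 nt in DKO replicates 1, 2 and 3, and 96.4, 91.7 and 46.6 nt in WT replicates 1, 2 and 3. The medians were 87, 92 and 44 nt in DKO and 89, 86.5 and 42 nt in WT. The groups overlapped, and the short values were those of the libraries numbered 3, which rest on 11 tags in DKO and 16 in WT. Single tails ran from 16 to 229 nt in DKO and from 8 to 231 nt in WT, and 231 nt was the longest length listed in any library. The mean over libraries was 82.0 ± 17.5 nt in DKO and 78.3 ± 27.5 nt in WT (SD, n = 3 each). Their difference of 3.73 nt gave p = 0.9 in an exact two-sided permutation test, in which 3 against 3 libraries cannot go below 0.1. Within the libraries numbered 1 and 2 the difference was -2.22 nt, and between the libraries numbered 3 it was 15.6 nt.

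**Figure D2:**
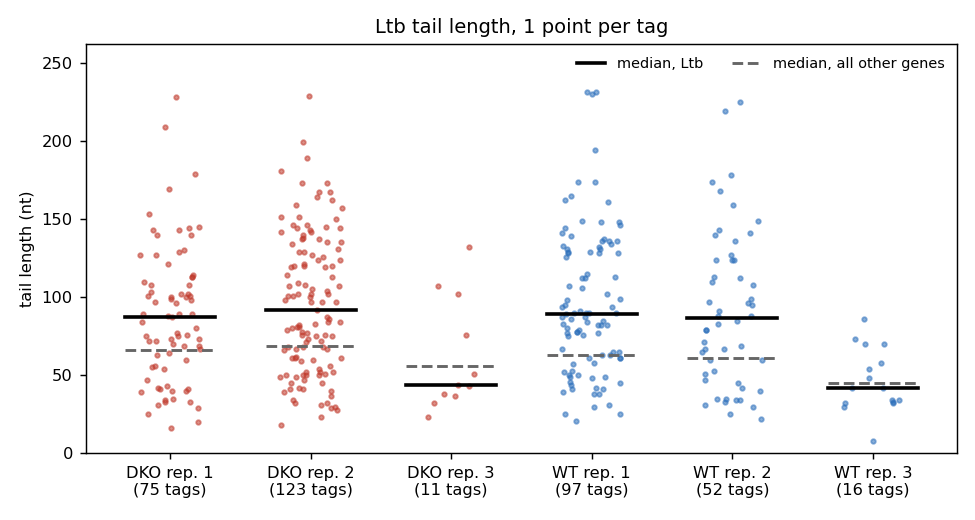
Tail length of every Ltb tag in nt, 1 point per tag, by library, with the 3 DKO libraries left of the 3 WT libraries. Replicates 1 and 2 of both genotypes reached 228 and 229 nt in DKO and 231 and 225 nt in WT, while replicate 3 had 11 tags in DKO, reaching 132 nt, and 16 in WT, reaching 86 nt.

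Ltb alone of the 9 genes reached 10 tailed tags in all 6 libraries, the minimum for the tail length test. The limma test ran on log2 geometric mean tails of 44 IDs, and the log2 difference of Ltb, DKO over WT, was 0.11 (SE 0.29, adjusted p = 0.76). The median over the 44 IDs was 0.12, and 42 of them were above 0. None of the 44 was called (0%), with 2 at an unadjusted p under 0.05 and a smallest adjusted p of 0.17. Ltb thus lay at the median of the IDs tested.

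Long and short tails of Ltb were also compared as shares. Tails of 90 nt or more made up 44, 50.4 and 27.3% of Ltb tags in DKO and 49.5, 46.2 and 0% in WT. The last of these is 0 of 16 tags, with an exact 95% interval up to 20.6%. Tails under 30 nt made up 5.33, 3.25 and 9.09% in DKO and 3.09, 3.85 and 6.25% in WT. The exact permutation p was 0.8 for the long tails (40.6 ± 11.9% in DKO, 31.9 ± 27.7% in WT) and 0.6 for the short ones (5.89 ± 2.96% in DKO, 4.40 ± 1.65% in WT; SD, n = 3 each). After Benjamini-Hochberg adjustment the exact permutation p was 1 in each of the 6 genotype comparisons of Ltb tails.

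Within a library, Ltb tails were set against those of all other tags. Ltb minus other was 16.0, 16.9 and 1.51 nt in DKO and 22.03, 21.8 and -1.43 nt in WT. Ltb was longer in 5 of 6 libraries, by 16.0 to 22.03 nt in replicates 1 and 2, and differed by 1.51 nt (DKO) and -1.43 nt (WT) in replicate 3. The mean difference was 12.8 ± 10.2 nt (SD, n = 6; exact sign-flip permutation p = 0.0625, adjusted 0.0625 over 4 such tests). Tails of 90 nt or more were 13.3 percentage points more frequent in Ltb on average, with the same exact p of 0.0625. Tails under 30 nt were less frequent in Ltb in 6 of 6 libraries. Their share in other tags was 8.80, 7.84 and 15.7% in DKO and 9.93, 10.997 and 25.7% in WT. These other tags pool all IDs, including some with geometric mean tails of only 7.80 to 17.7 nt. Whether short tails were rarer in Ltb than in a typical gene was not tested. The mean difference was -8.01 percentage points, with an exact permutation p of 0.03125, the smallest that 6 libraries can give (adjusted 0.0625). None of the 4 tests passed after adjustment.

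**Figure D3:**
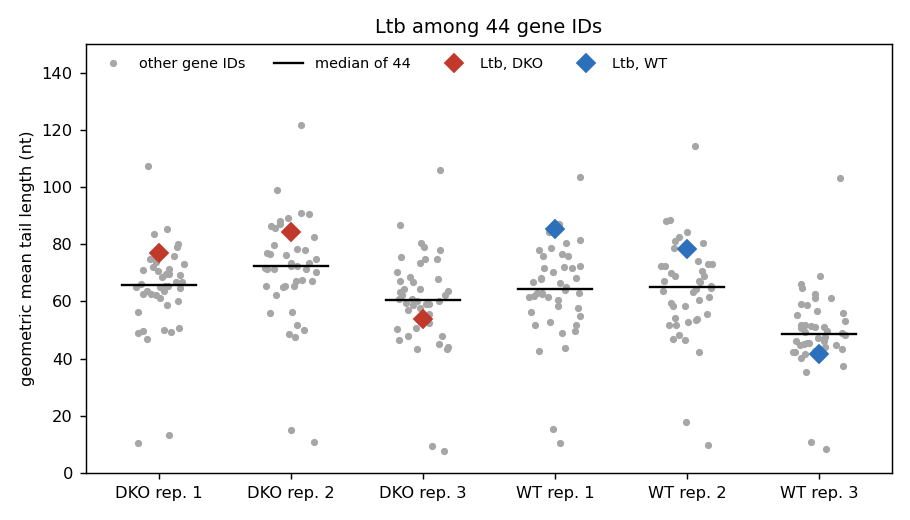
Geometric mean tail length in nt of the 44 gene IDs that entered the tail length test, by library, with Ltb as a diamond and the median as a line. Ltb ranked 6, 10 and 32 of 44 in DKO replicates 1, 2 and 3, and 3, 9 and 39 in WT replicates 1, 2 and 3, counted from the longest.

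The geometric mean tail of Ltb was 76.9, 84.4 and 53.8 nt in DKO and 85.2, 78.2 and 41.5 nt in WT. The median of the 44 IDs was 65.7, 72.3 and 60.4 nt in DKO and 64.4, 65.0 and 48.7 nt in WT. Ltb lay above that median in replicates 1 and 2 and below it in replicate 3, in both genotypes. On the log2 scale, replicate 3 minus the mean of replicates 1 and 2 was -0.58 for Ltb in DKO, number 3 of 44 from the lowest, against a median of -0.19. In WT it was -0.98, the lowest of 44, against a median of -0.32.

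The bases listed for Ltb tails were unlike those of other tags. Among tails of at least 60 nt, the listed string was the run of exactly 10 A shown above in 192 of 266 Ltb tags (72.2%), against 243 of 45985 other tags (0.528%). By library this was 44 of 55, 65 of 92 and 4 of 4 Ltb tags in DKO, and 51 of 74, 26 of 37 and 2 of 4 in WT. In other tags it was 0.483 to 0.632% in every library. Ltb had the highest share of such strings among IDs with at least 20 tailed tags in DKO replicates 1 and 2 and in WT replicates 1 and 2, where the next ID reached 20.7 to 30.4%. Strings of 50 bases or more, by contrast, were listed for 23 of the Ltb tails of at least 60 nt (8.65%) and for 34952 of the other tails (76.0%). The Ltb tags listed as 10 A had a median tail of 119 nt (60 to 231 nt). The 90 Ltb tags whose string came within 20 nt of the tail length had a median tail of 40.5 nt (8 to 108 nt). The long Ltb lengths thus rest mostly on tags whose listed bases cover only 10 nt of the tail.

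**Figure D4:**
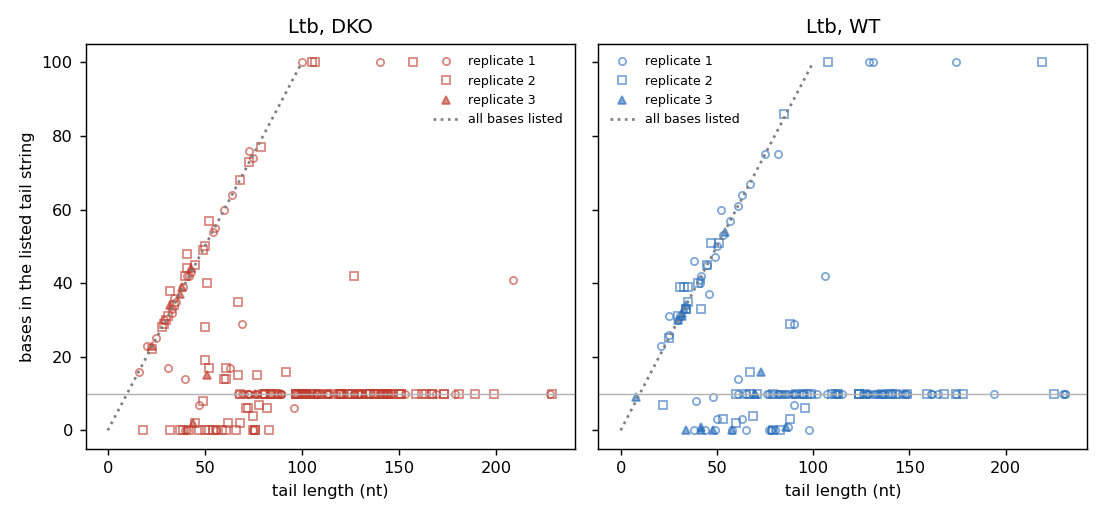
Number of bases listed for the tail against tail length in nt, 1 point per Ltb tag, for DKO on the left and WT on the right. In both genotypes most tags above 60 nt lie on a horizontal line at 10 bases (192 of 266), away from the diagonal on which string and length are equal.

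Ltb tags also differed from other tags in a further deposited column. The bit of value 8192 in the flag column, whose meaning no source used here states, was set for 51 of 75, 97 of 123 and 0 of 11 Ltb tags in DKO and for 73 of 97, 35 of 52 and 1 of 16 in WT. It was set for 7.10 to 13.9% of other tags in the DKO libraries and for 7.42 to 20.1% in the WT libraries. Ltb tags with the flag had mean tails of 103 and 107 nt in DKO replicates 1 and 2 and 109 and 110 nt in WT replicates 1 and 2. Ltb tags without it had mean tails of 55.5, 53.5 and 62.3 nt in DKO and 59.5, 53.9 and 49.2 nt in WT. The single Ltb tag with the flag in WT replicate 3 had a tail of 8 nt, and DKO replicate 3 had none. In replicates 1 and 2 the flagged Ltb tags were largely those listed as 10 A, so for Ltb in those libraries the 2 traits were not independent. There the flag was set for 44 of 44 and 65 of 65 Ltb tags listed as 10 A in DKO, and 51 of 51 and 26 of 26 in WT. In replicate 3 it was set for 0 of 4 such tags in DKO and 0 of 2 in WT. Among other tags listed as 10 A it was set for 16 of 96, 42 of 155 and 15 of 31 in DKO. In WT it was set for 14 of 82, 18 of 58 and 36 of 58 of them. The 2 traits thus did not always go together. In other tags those with the flag were the shorter ones in each library, the reverse of Ltb in replicates 1 and 2, with means of 24.1 to 38.3 nt with the flag in DKO and 18.3 to 40.8 nt in WT, and 66.7 to 81.8 nt without it in DKO and 55.5 to 77.1 nt in WT. Without tags that carry the flag, Ltb minus other was -15.9 nt on average and below 0 in 6 of 6 libraries (exact sign-flip permutation p = 0.03125, adjusted 0.0625). In replicates 1 and 2 leaving them out removed mainly longer Ltb tails and shorter other tails. This p therefore restates that pattern and is no separate test of Ltb tails. The direction of Ltb against other tags thus depended on that column. The share of Ltb tags with the flag did not differ detectably between the genotypes (49.0 ± 42.7% in DKO, 49.6 ± 37.8% in WT, SD, n = 3 each; exact permutation p = 1).

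Tails of the other genes rest on few tags, and none was tested. Ms4a6b had tails of 35, 46, 48, 51, 54, 83, 90 and 127 nt in DKO replicate 1. In DKO replicate 2 they were 41, 63, 65, 72, 90, 105, 117, 165 and 231 nt, and in DKO replicate 3 they were 34 and 79 nt. In WT they were 33, 47, 67 and 99 nt in replicate 1, 46, 65 and 75 nt in replicate 2, and 16, 44 and 119 nt in replicate 3. The 19 DKO tails had a median of 72 nt and the 10 WT tails one of 56 nt, and the ranges overlapped throughout.

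Ms4a4b tails ran from 26 to 195 nt in DKO replicate 1 (11 tags) and from 17 to 187 nt in DKO replicate 2 (9 tags), and were 49 and 52 nt in DKO replicate 3. In WT they were 33, 39 and 58 nt in replicate 1, 22 nt in replicate 2, and 53 and 70 nt in replicate 3. The median was 56.5 nt over 22 DKO tags and 46 nt over 6 WT tags. Tails of 90 nt or more were seen in 6 of the DKO tags and 0 of the WT tags, too few in WT to show a difference.

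Cd27 had the lowest median tail of the 7 genes, 31 nt over 14 tags. They measured 7, 9, 18, 33 and 37 nt in DKO replicate 1 and 13, 18, 25, 29, 40, 56, 78 and 107 nt in DKO replicate 2, against a single WT tail of 99 nt in replicate 3. Of the 13 DKO tails, 7 were under 30 nt and the median was 29 nt. With 1 WT tag the genotypes cannot be compared.

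Cd2 tails were 65, 78, 84 and 84 nt in DKO replicate 1 and 33 to 151 nt in DKO replicate 2 (median 68 nt, 13 tags). In WT they were 13, 46, 50 and 108 nt in replicate 1 and 116 nt in replicate 3. Cd5 tails were 39 to 88 nt in DKO replicate 1 (7 tags), 18 and 34 nt in DKO replicate 2 and 62 nt in DKO replicate 3, and in WT 21 and 36 nt in replicate 1 and 47 and 101 nt in replicate 2. Cd6 tails were 52, 65 and 87 nt in DKO replicate 1 and 42, 45 and 108 nt in DKO replicate 2, and in WT 22 nt in replicate 1, 62 and 80 nt in replicate 2 and 55 nt in replicate 3. For each of these genes the DKO and WT ranges overlapped.

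**Figure D5:**
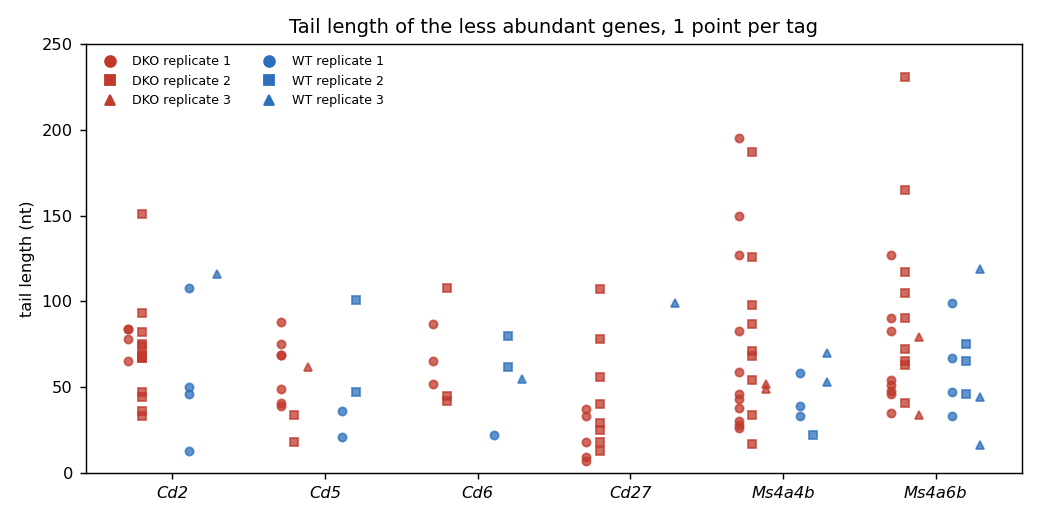
Tail length in nt of every tag of the 6 less abundant genes, 1 point per tag, with DKO left of WT for each gene. The ranges of the genotypes overlapped for Cd2, Cd5, Cd6, Ms4a4b and Ms4a6b, and for Cd27 the single WT tail of 99 nt fell within the DKO range of 7 to 107 nt.

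Over the tags of all 7 genes, the mean tail per library was 79.8, 89.7 and 60.1 nt in DKO and 90.3, 87.8 and 54.9 nt in WT, so DKO minus WT of the library means was -1.18 nt. That direction was not stable: it was 7.04 nt without DKO replicate 3, 5.14 nt without WT replicate 1 and 3.88 nt without WT replicate 2. It was 3.26 nt without Ltb and 5.75 nt without tags that carry the flag. With equal weight for Ltb, Ms4a4b and Ms4a6b, which had tags in every library, it was 15.3 nt. The other genes did not enter that value. Tails under 30 nt made up 7.96, 5.99 and 6.25% in DKO and 5.41, 5 and 8.33% in WT, a difference of 0.488 percentage points. Both are descriptions with no test, and Ltb supplies most of the tags. In the 6 other genes the mean tail was 63.4, 73.0 and 55.2 nt in DKO and 48.0, 62.3 and 71.5 nt in WT, again overlapping.

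Bases added beyond the tail were rare. They were listed for 9 of the 491 tags, 6 of 296 in DKO and 3 of 195 in WT, and 7 of the 9 were Ltb tags. Added U, which is known to mark short tails for decay, was present in 6 DKO tags (2.03%, exact 95% interval 0.747 to 4.36%) and 2 WT tags (1.03%, 0.124 to 3.66%). In other tags it was present in 2.40% in DKO and 2.73% in WT. The intervals of the genotypes overlapped. The Cd5 tag with an added U, of DKO replicate 2, had a tail of 18 nt seen in 3 reads. Its listed string was shorter than the tail, with 13 bases including the added U.
Cd5, DKO replicate 2, added base: aaaaaaaaaaaaT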

How the data were processed

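mTAIL-seq tags of 3 DKO and 3 WT libraries were analysed as deposited. Per the submitters' processing notes, GSNAP and bedtools were used with mm10 (GRCm38); their settings are not stated. The deposited files list each mapped tag with its tail length in nt, its read count, a flag value and listed tail bases, and a second file links tags to gene IDs, per the file contents. Counts of tailed tags (5 nt or more) per gene ID were made here from the files the authors deposited; geometric mean tails and counts equalled the deposited gene table in 35 of 35 values of these genes (tolerance 1e-06). Gene positions are from RefSeq (GRCm38.p6, matched by symbol); that table pairs no Ensembl ID with a symbol (0 of 49997), so cell type markers, the deleted genes and other surface protein genes were not analysed here, and the T cell label was not checked.

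All 9 genes are named; they and the lists were chosen with earlier results of these data known. Tails were tested with limma 3.58.1 (log2 geometric mean, at least 10 tailed tags in every library, 44 IDs) and counts with edgeR 4.0.16 (quasi-likelihood, TMM, filterByExpr, 170 IDs; DESeq2 1.42.0 as an alternative) in R 4.3.3, with Benjamini-Hochberg adjustment at 0.05. Both were tested on simulated data. Single values used exact permutation tests (SciPy 1.17.1). Intervals are exact at 95% and cover counting error only; whether each tag is an independent molecule is not stated. Same-numbered libraries deviated together (correlations over IDs of 0.16, 0.29 and 0.41 for tails and 0.14, 0.21 and 0.38 for counts, each over 0.1). These correlations cannot show that the numbers pair the libraries, because the libraries with many untailed tags and short tails also shared a number. Pairing by animal was not tested. The fit without the block stayed the one reported, and the fit with it is given as an alternative. Alternatives were other tag minimums, single-ID tags, the median, centring, other scalings and each library left out.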

Additional observations from a re-analysis of the deposited data

Results flagged for a closer look

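A column outside the tail length and tag count measurements held a signal for Ltb. The bit of value 8192 in the deposited flag column was set for 68.0% of Ltb tags in DKO replicate 1, 78.9% in DKO replicate 2, 75.3% in WT replicate 1 and 67.3% in WT replicate 2. In other tags of these libraries it was set for 7.62% in DKO replicate 1, 7.10% in DKO replicate 2, 7.42% in WT replicate 1 and 7.86% in WT replicate 2. In replicate 3 it was set for 0 of 11 Ltb tags in DKO and 1 of 16 in WT. Among IDs with at least 20 tailed tags, Ltb ranked number 3 for this share in DKO replicate 1 and number 2 in DKO replicate 2, WT replicate 1 and WT replicate 2. Every Ltb tag listed as 10 A in replicates 1 and 2 carried this bit. No source used here states the meaning of the bit. Without tags that carry it, the mean tail of Ltb minus that of other tags was -15.9 nt, against 12.8 nt with them (means over 6 libraries). Leaving those tags out removed mainly longer Ltb tails and shorter other tails in replicates 1 and 2.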

How the results depend on the processing

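Tail length called 0 of the IDs tested in 15 of 15 alternatives. The log2 tail difference of Ltb, DKO over WT, ranged from -0.21 to 0.31 (adjusted p 0.52 to 0.99) and turned negative without DKO replicate 2 (-0.018), without WT replicate 3 (-0.21), with each library centred on its median (-0.051) and with numbers 1 and 2 only (-0.018). At 20 tags in every library Ltb was not tested. Centring moved the median of the 44 IDs to -0.05, against 0.12 as reported. Tag counts called 0 to 8 IDs with 1 library left out (8 without WT replicate 3), 3 with the replicate block and 30 with numbers 1 and 2 only (7 higher and 23 lower in DKO, of 241), an alternative added after seeing the data. Ltb was called under none of the 13 count alternatives: its log2 difference ranged from -0.55 to 0.18 and was positive without WT replicate 1 (0.18) and with library totals alone (0.12), which put the median of the 170 IDs at 0.24, against -0.05 with TMM. The replicate block changed no other call, and left the Ltb tail at 0.11 (adjusted p = 0.52). Over the tags of the 9 genes, the difference in mean tail ranged from -12.6 to 15.3 nt (-12.6 to 7.04 nt with 1 library left out, -1.18 nt with the block). The 15.3 nt came from equal weight for Ltb, Ms4a4b and Ms4a6b, the genes with tags in every library. The difference in tails under 30 nt was -11.1 percentage points with equal weight for the same genes and -6.54 without Ltb (-0.135 to 1.53 with 1 library left out, 0.488 with the block). The -11.1 rested partly on WT replicate 2, where the only Ms4a4b tag, of 22 nt, weighed as much as all 52 Ltb tags. The level of the 6 genes other than Ltb was higher in DKO by 6.65 to 9.50 per 10000 links with 1 library left out and 10.6 with numbers 1 and 2 only. These were among 9 alternatives added after seeing the data. Every DKO library lay above every WT library, with and without the 10 most-tagged IDs in the denominator. None of the 9 could therefore change the direction, and they show only its size. The causes were not tested. Depth limits all of this: 5 to 44 tags per DKO library and 8 to 14 per WT library for those 6 genes, and 11 DKO and 16 WT tags for Ltb in replicate 3.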
